A study of Mus musculus with 4 samples.

Results

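Primary granule genes, which encode the enzymes and matrix of the first granules that a developing neutrophil makes, were followed in PMN-MDSC (polymorphonuclear myeloid-derived suppressor cells), relatives of the neutrophil that damp T cell responses, treated with NECA or with DMSO. The genes were chosen by name: Mpo, Elane, Prtn3, Ctsg, Prss57, Ctsc, Ms4a3, Lyz2, Srgn and Serpinb1a, 10 of the 54532 genes in the deposited tables. The NECA group held 2 libraries of PMN-MDSC from the spleens of newborn C57BL/6 mice after 5 days with NECA, a long-lived analogue of adenosine that engages its receptors. The DMSO group held 2 libraries of the same kind of cell, strain, age and organ, given the solvent DMSO. The labels give no allele, transgene, sex or purification method. Whether replicates were separate animals or separate cultures is not stated there, so the p-values reflect the spread among 4 libraries, which may be technical.

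Primary (azurophil) granules are filled at the promyelocyte stage, before the specific and gelatinase granules, and most of their genes are then silenced as the cell matures. Myeloperoxidase makes hypochlorous acid from hydrogen peroxide, and a family of serine proteases digests engulfed microbes and matrix. The proteases are made as inactive precursors, which the dipeptidyl peptidase cathepsin C trims, and are stored bound to the proteoglycan serglycin. Adenosine receptors of the A2 type act through cyclic AMP and the factor CREB, which binds the cyclic AMP response element (CRE).

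Total counts were 18712625 and 15864120 in NECA replicates 1 and 2, and 18583918 and 18492030 in DMSO replicates 1 and 2. The 4 libraries had the transcripts of neutrophils: S100a8, a calcium-binding protein of their cytosol, had 16852 and 18817 CPM (counts scaled to a common library size) with NECA, and 14294 and 16131 CPM with DMSO, and each of 15 listed neutrophil markers was detected. Of 13083 genes that passed the filter on low counts, 46 were higher (0.352%) and 128 lower (0.978%) with NECA at adjusted p under 0.05 in edgeR's quasi-likelihood test with Benjamini-Hochberg adjustment. With libraries scaled by total counts alone the split was 21 higher and 217 lower.

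Each of the 10 primary granule genes passed the filter. Lysozyme, Lyz2, rose and cathepsin C, Ctsc, fell with NECA by edgeR's test, and 8 did not pass. So 2 of 10 were called, against 1.33% of all genes tested. Myeloperoxidase, Mpo, stood at 0.439 times its DMSO level in the model and did not pass. Of the 4 serine proteases, 0 passed by edgeR or by DESeq2 and 0 had an unadjusted p under 0.05, and between the DMSO libraries Elane differed 2.34-fold and Prtn3 3.60-fold. The median log2 fold change was -0.21 over the 10 genes and -0.01 over all genes tested. In 2 genes both NECA libraries lay above both DMSO libraries (22.4% of all genes tested did so), in 4 both lay below (24.3% of all genes tested), and in 4 the groups overlapped (46.7% of all genes tested did not overlap, in either direction).

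The levels of these genes spanned a wide range. On the length-scaled FPKM scale (fragments per kilobase of gene at a common depth, so that genes can be compared), Lyz2 had 11628 and 11138 FPKM with NECA, and 10099 and 9064 FPKM with DMSO, and was the gene with rank 6 by mean FPKM of all genes in the tables. Serpinb1a had 215 ± 9.26 FPKM with NECA and 203 ± 5.14 FPKM with DMSO (SD, n = 2 each), and Srgn had 51.5 ± 6.18 FPKM with NECA and 45.8 ± 8.25 FPKM with DMSO. Lyz2 lay above 99.95% of the genes tested, Serpinb1a above 98.75% and Srgn above 93.33%. Ms4a3 had 9.36 ± 0.526 FPKM with NECA and 11.5 ± 0.600 FPKM with DMSO (SD, n = 2 each). The other 6 genes, Mpo and the serine proteases among them, had 0.878 to 5.54 FPKM in every library, near the middle of the genes tested or below it. In these 6 genes the order of mean levels was Prss57, Ctsc, Prtn3, Elane, Mpo and Ctsg, and the ranges of Ctsc, Prtn3, Elane and Mpo over libraries overlapped. Lysozyme, unlike the serine proteases, is also made by mature neutrophils and macrophages.

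**Figure D1:**
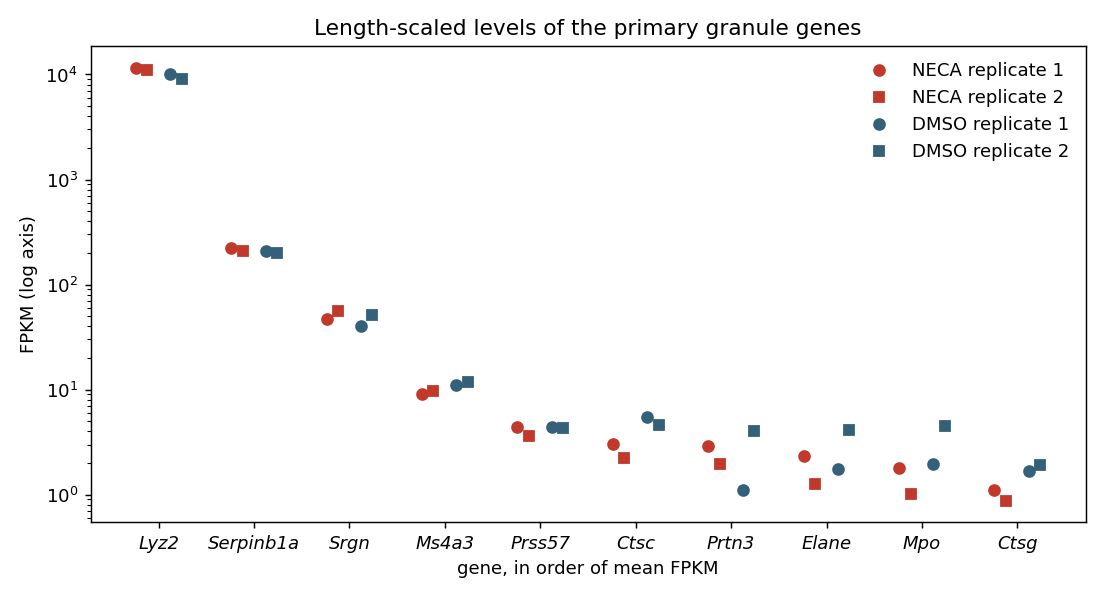
Deposited FPKM (log axis) of each of the 10 genes in each library, NECA in red to the left and DMSO in blue to the right, with genes in order of mean FPKM. Lyz2 lies between 9064 and 11628 FPKM, and Mpo, Elane, Prtn3 and Ctsg between 0.878 and 4.48 FPKM.

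Mpo encodes myeloperoxidase, the peroxidase that gives primary granules their classical stain (Ensembl gene ENSMUSG00000009350, chromosome 11, 87793581 to 87804413, GRCm38). It had 6.15 and 3.49 CPM with NECA, and 6.79 and 15.4 CPM with DMSO, from 112, 54, 130 and 290 counts in that order. DMSO replicate 2 stood alone at the high end, and NECA replicate 1 lay close under DMSO replicate 1, so the groups did not overlap but nearly met. Its log2 fold change was -1.19 (SE 0.36, 95% interval -1.97 to -0.41, edgeR adjusted p = 0.121). Without DMSO replicate 2 the value was -0.49 (adjusted p = 0.601). It passed without NECA replicate 1 (-1.66, adjusted p = 6.59e-07), without NECA replicate 2 (-0.84, adjusted p = 0.0372) and without DMSO replicate 1 (-1.67, adjusted p = 0.0162). An antisense gene with 512 shared exonic bases, Gm11505, had 0 counts in the 4 libraries.

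Elane, Prtn3 and Prss57 are serine protease genes of 1 stretch of chromosome 10. Neutrophil elastase, Elane (79886247 to 79888215), starts 3072 bases after the end of proteinase 3, Prtn3 (79874476 to 79883174), on the same strand. Prss57 (79781474 to 79790961), a protease that cuts after arginine, lies on the opposite strand, 83514 bases before Prtn3. Ctsg, cathepsin G, a chymotrypsin-like protease, lies on chromosome 14 (56099881 to 56102574).

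The promoters of the neighbours Elane and Prtn3 are shown beside those of Mpo, Ctsg and Ctsc because Ctsc passed the test, and the others are the peroxidase and the serine proteases for which the RefSeq table gives a start. The RefSeq starts of Prtn3, Elane and Mpo lie inside the GENCODE gene bounds given above. Each is 250 bases before to 50 bases after the start, 5′ to 3′ on the gene's own strand (RefSeq, GRCm38.p6), at chr10:79886062-79886361 (+), chr10:79879417-79879716 (+), chr11:87793534-87793833 (+), chr14:56102525-56102824 (-) and chr7:88277835-88278134 (+). Capitals mark the core GAGGAA, on either strand, that the myeloid factor PU.1 binds.
Elane: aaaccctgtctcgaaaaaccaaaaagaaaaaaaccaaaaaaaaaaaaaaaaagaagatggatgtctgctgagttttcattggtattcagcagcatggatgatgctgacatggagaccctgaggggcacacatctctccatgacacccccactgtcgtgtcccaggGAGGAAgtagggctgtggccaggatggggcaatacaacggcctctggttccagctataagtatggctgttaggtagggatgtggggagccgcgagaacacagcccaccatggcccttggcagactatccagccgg
Prtn3: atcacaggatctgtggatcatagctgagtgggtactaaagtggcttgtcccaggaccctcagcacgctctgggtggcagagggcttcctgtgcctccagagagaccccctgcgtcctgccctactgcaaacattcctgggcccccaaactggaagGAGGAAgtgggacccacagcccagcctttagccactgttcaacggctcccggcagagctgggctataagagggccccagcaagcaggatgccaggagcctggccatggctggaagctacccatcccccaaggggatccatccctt
Mpo: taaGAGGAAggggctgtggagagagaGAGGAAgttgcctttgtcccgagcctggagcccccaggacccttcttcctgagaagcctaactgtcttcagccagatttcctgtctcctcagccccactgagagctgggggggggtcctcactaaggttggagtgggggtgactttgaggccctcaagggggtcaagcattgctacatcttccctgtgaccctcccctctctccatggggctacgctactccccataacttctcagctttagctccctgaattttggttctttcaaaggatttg
Ctsg: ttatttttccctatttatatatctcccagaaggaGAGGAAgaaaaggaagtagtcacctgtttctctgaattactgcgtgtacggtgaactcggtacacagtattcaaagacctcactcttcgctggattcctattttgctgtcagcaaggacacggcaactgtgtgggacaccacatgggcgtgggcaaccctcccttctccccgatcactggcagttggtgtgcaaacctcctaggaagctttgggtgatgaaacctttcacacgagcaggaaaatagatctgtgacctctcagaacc
Ctsc: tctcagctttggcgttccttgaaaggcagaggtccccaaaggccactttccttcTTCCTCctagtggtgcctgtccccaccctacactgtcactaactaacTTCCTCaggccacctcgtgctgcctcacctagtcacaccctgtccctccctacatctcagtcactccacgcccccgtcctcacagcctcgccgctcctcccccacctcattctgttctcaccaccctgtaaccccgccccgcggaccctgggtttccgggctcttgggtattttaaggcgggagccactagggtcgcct

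Of the 10 genes, 8 had a promoter in the RefSeq table, and Prss57 and Serpinb1a had none. The PU.1 core GAGGAA was in the promoters of 6 of the 8 (Mpo, Elane, Prtn3, Ctsg, Ctsc and Ms4a3), against 28.1% of 32544 promoters of 300 bases. It began 85 bases before the start in Elane and 95 bases before it in Prtn3. The core of Myb sites, AACNG, was in 7 of 8, against 80.2% of all promoters. The Runx core TGNGGT was in 4 of 8 (45.9% of all), the C/EBP motif TTGCNNAA in Ms4a3 alone (10.8% of all), and the CRE half-site TGACG in 1 of the 2 promoters of Srgn alone (20.9% of all). Both strands were searched in each case, and matches of different motifs did not overlap in the printed sequences. A match is a description of letters and not a measured site.

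Elane had 2.31 and 1.23 CPM with NECA, and 1.72 and 4.04 CPM with DMSO, and Prtn3 had 5.05 and 3.36 CPM with NECA, and 1.93 and 6.96 CPM with DMSO. In both genes the DMSO libraries were the lowest or next to lowest and the highest of the 4, so the groups overlapped. Libraries of the same group differed, in both groups. DMSO replicate 2 had 2.34 times the Elane level of DMSO replicate 1 (95% Clopper-Pearson interval of the ratio 1.54 to 3.64). It also had 3.60 times the Prtn3 level (2.48 to 5.33) and 2.27 times the Mpo level (1.84 to 2.81) of DMSO replicate 1. These intervals cover counting error only. NECA replicate 2 was lower than NECA replicate 1 in the same 3 genes, with ratios of 0.532 (0.292 to 0.936) for Elane, 0.665 (0.464 to 0.944) for Prtn3 and 0.567 (0.402 to 0.792) for Mpo.

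The log2 fold change of Elane was -0.69 (95% interval -1.70 to 0.33, edgeR adjusted p = 0.534) and that of Prtn3 -0.07 (95% interval -1.07 to 0.93, adjusted p = 0.969). Both intervals hold large falls as well as no change, and that of Prtn3 also holds a large rise. Without DMSO replicate 2 the signs turned, to 0.04 for Elane and 1.12 for Prtn3. Counts of Prtn3 are uncertain where it shares 159 exonic bases with Plppr3 on the opposite strand, since the use of strand in counting is not given in the sources used here.

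Ctsg had 1.15 and 0.905 CPM with NECA, and 1.72 and 1.97 CPM with DMSO, from 21, 14, 33 and 37 counts. Unlike Elane, its groups did not overlap, and libraries within a group differed by no more than counting error (ratio of DMSO replicate 2 to 1 of 1.14, interval 0.693 to 1.88). Its log2 fold change was -0.83 (95% interval -1.82 to 0.15, edgeR adjusted p = 0.412), between -0.67 and -1.02 with any library left out.

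Prss57 had 12.6 and 10.3 CPM with NECA, and 12.7 and 12.3 CPM with DMSO. NECA replicate 2 was the lowest and the other 3 libraries were alike. Its log2 fold change was -0.13 (95% interval -0.50 to 0.24, edgeR adjusted p = 0.792). The highest library of Prss57 stood at 1.24 times the lowest, against 3.29 for Elane and 3.60 for Prtn3. So it did not share the several-fold spread of its chromosome 10 neighbours. Its counts are uncertain, because 1157 of its 2843 exonic bases overlap Fstl3 on the opposite strand, a gene with 65 to 72 counts per library.

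Summed, the 4 serine proteases had 21.1 and 15.8 CPM with NECA, and 18.1 and 25.3 CPM with DMSO. The DMSO libraries were higher and lower than NECA replicate 1, so the sums overlapped. An exact permutation test of 2 against 2 libraries cannot go below p = 0.333 (two-sided) and was not used.

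**Figure D2:**
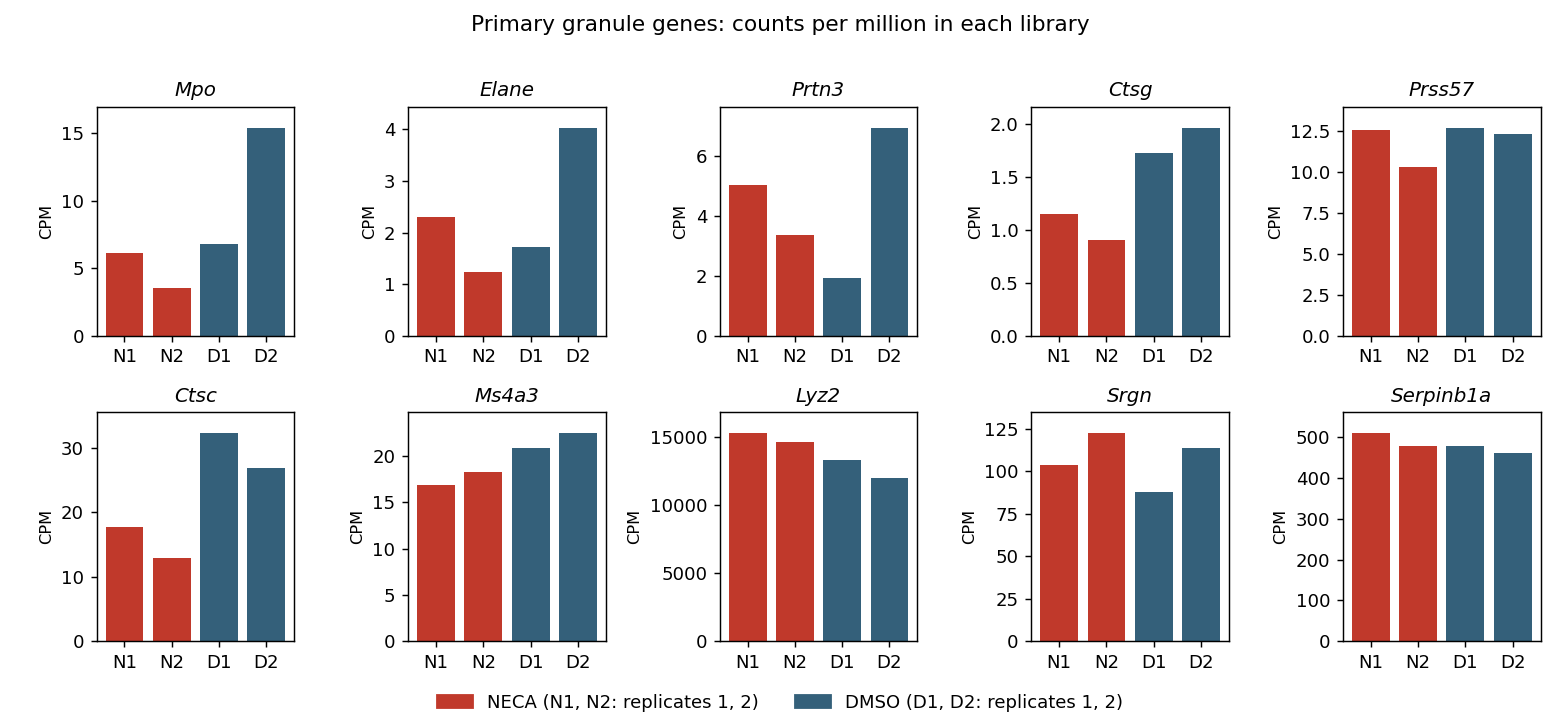
CPM (bars from 0, own scale in each panel) of each gene in NECA replicates 1 and 2 (N1, N2, red) and DMSO replicates 1 and 2 (D1, D2, blue). DMSO replicate 2 stands highest for Mpo (15.4 CPM), Elane (4.04 CPM) and Prtn3 (6.96 CPM), while the Ctsc bars of both NECA libraries (17.7 and 12.9 CPM) are under both DMSO bars.

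Ctsc encodes cathepsin C (dipeptidyl peptidase I), which removes the N-terminal dipeptide that keeps elastase, proteinase 3, cathepsin G and Prss57 inactive. The gene (ENSMUSG00000030560) lies on chromosome 7, 88278085 to 88310888. It had 17.7 and 12.9 CPM with NECA, and 32.3 and 26.9 CPM with DMSO. Both NECA libraries lay well under both DMSO libraries. Ctsc fell by 0.95 on the log2 scale (SE 0.16, 95% interval -1.29 to -0.60, edgeR adjusted p = 0.0142), to 0.519 times its DMSO level. Over the alternatives the value ran from -1.20 to -0.73 and it passed in 8 of 9. The exception was without DMSO replicate 1, where the value was -0.81 (adjusted p = 0.055).

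Macrophages also express Ctsc, and their markers moved in the same direction. Of 15 listed macrophage markers, 0 were higher, 14 lower and 1 not past edgeR's test, with a median log2 fold change of -1.65. The count of lower markers was 14 under 8 of the 9 alternatives and 12 without DMSO replicate 1. Their summed level was 686 and 653 CPM with NECA, and 1075 and 1025 CPM with DMSO, and 0 of the 15 were at 0 in all libraries. The largest part of that sum was Slc40a1, the 1 marker not past the test, so the sum understates the fall of the others. Slc40a1 had 500 and 510 CPM with NECA, and 539 and 549 CPM with DMSO (log2 fold change -0.11). The C1q subunit gene C1qa had 14.9 and 10.0 CPM with NECA, and 43.4 and 35.5 CPM with DMSO. In these bulk samples fewer macrophages and less RNA per macrophage cannot be told apart, and their part in the fall of Ctsc was not tested. The 5 genes nearest to Ctsc in profile, by Euclidean distance of centred log2(CPM + 0.5) over the 4 libraries among 5514 genes, were Plxnb2 (0.216), Pld3 (0.240), Lrp1 (0.256), Apoe (0.265) and Snx5 (0.269). Each of them was lower with NECA, by 0.74 to 1.19 on the log2 scale. They were picked by likeness to Ctsc in these libraries, so this shared direction is no separate result. Apoe, a lipoprotein gene that macrophages make in quantity, had 47.1 and 32.6 CPM with NECA, and 99.5 and 82.8 CPM with DMSO.

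Lyz2 encodes the lysozyme of neutrophils, monocytes and macrophages, which cleaves bacterial cell walls (ENSMUSG00000069516, chromosome 10, 117277331 to 117282321). It had 15284 and 14618 CPM with NECA, and 13330 and 11972 CPM with DMSO. Both NECA libraries lay above both DMSO libraries, by a margin close to the distance between the DMSO libraries. Its log2 fold change was 0.24 (SE 0.05, 95% interval 0.14 to 0.34, edgeR adjusted p = 0.0264), a rise to 1.18 times the DMSO level. It no longer passed once DMSO replicate 2 was removed (0.16, adjusted p = 0.0695) or with total counts as the scale (0.17, adjusted p = 0.103). Counts are uncertain beside Lyz1, which holds 15.4% of the 50-base stretches of Lyz2, but Lyz1 had only 107 to 207 counts per library and the sum of both genes stood at 0.24 as well. Neutrophils and macrophages both express Lyz2. Of 15 neutrophil markers, each had a log2 fold change above 0 (median 0.15). In 12 both NECA libraries lay above both DMSO libraries (22.4% of all genes tested did so). By edgeR's test 1 was higher (0.352% of all genes tested). The higher calls were 0 with total counts as the scale, 4 by DESeq2, 7 with the replicate block and 10 with no filter. The summed level of the 15 markers was 127708 and 129251 CPM with NECA, and 115257 and 121008 CPM with DMSO. The macrophage markers were lower with NECA, as given above. The part of either cell type in the rise of Lyz2 was not tested.

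Ms4a3, a membrane protein of granulocyte and monocyte progenitors, had 16.9 and 18.3 CPM with NECA, and 20.8 and 22.5 CPM with DMSO. Both NECA libraries were a little below both DMSO libraries. Its log2 fold change of -0.30 (SE 0.13, 95% interval -0.58 to -0.02) did not pass (edgeR adjusted p = 0.284), and it lay between -0.37 and -0.24 under every alternative. Its unadjusted p by edgeR, 0.0388, had rank 1785 among 13083 genes tested. So at least 1785 genes had an unadjusted p under 0.05, in either direction. That background applies to each count at this threshold below.

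Srgn encodes serglycin, the proteoglycan core on which the positively charged proteases are packed. It had 103 and 122 CPM with NECA, and 88.1 and 114 CPM with DMSO. The libraries of each group differed by more than the groups did, with a log2 fold change of 0.16 (SE 0.11, edgeR adjusted p = 0.547) that stood at -0.01 without DMSO replicate 1 and passed at 0.28 without NECA replicate 1 (adjusted p = 0.0368). Serpinb1a encodes the cytosolic inhibitor of elastase, proteinase 3 and cathepsin G that guards the cell against its own granules. It had 510.0 and 479 CPM with NECA, and 478 and 461 CPM with DMSO, with NECA replicate 2 hardly above DMSO replicate 1. Its log2 fold change was 0.08 (SE 0.05, 95% interval -0.04 to 0.19, edgeR adjusted p = 0.552). Its close relatives Serpinb1b and Serpinb1c had 0 or 1 count per library.

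**Figure D3:**
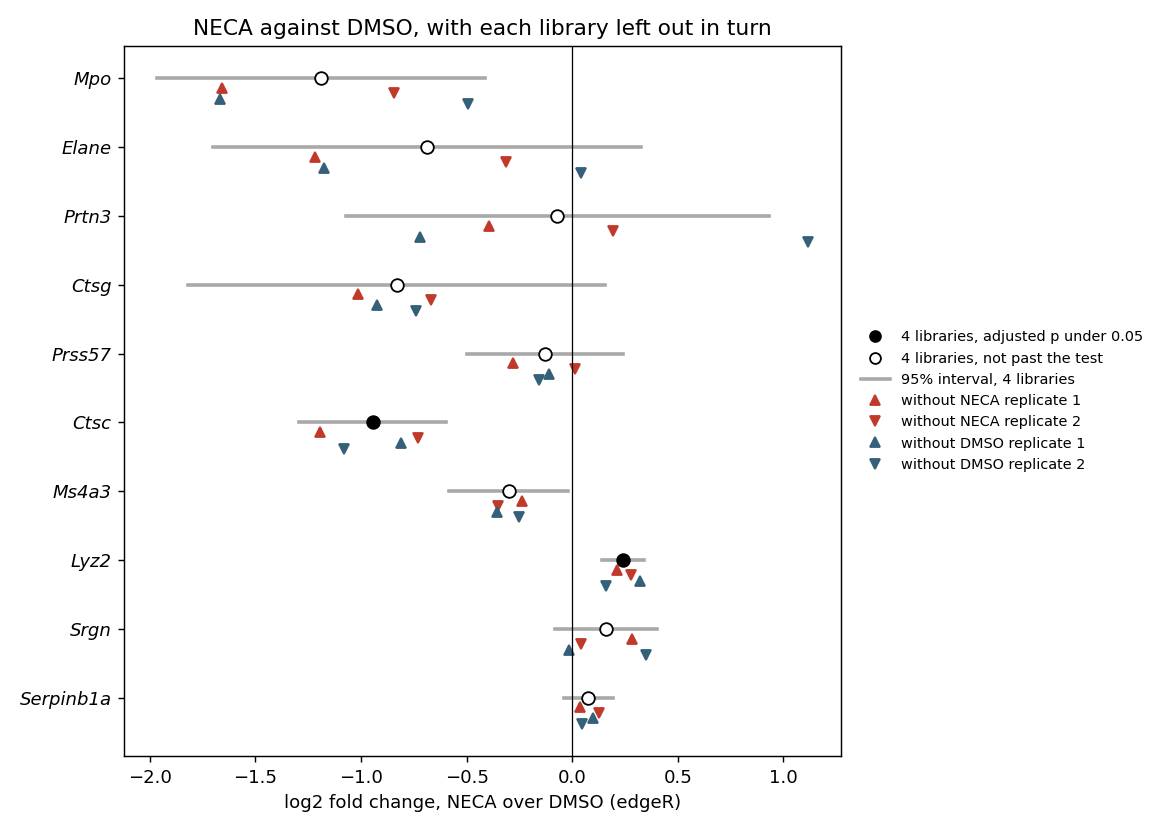
Log2 fold change of NECA over DMSO for each gene with its 95% interval (circle and line, filled at adjusted p under 0.05), and below it the value with each library left out. The Prtn3 values span -0.72 to 1.12, those of Ctsc -1.20 to -0.73 and those of Lyz2 0.16 to 0.32.

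The genes split by how they varied over the 4 libraries. By distance of centred log2 CPM, Mpo and Elane were 0.540 apart and both peaked in DMSO replicate 2, and Lyz2 and Serpinb1a, 0.184 apart, both had their lowest level there. Ctsg was nearer to Ms4a3 (0.410) and Ctsc (0.458) than to Mpo or Elane. Under the rule for similar profiles, the nearest gene to both Mpo (0.644) and Elane (0.325) was Rpl41, a ribosomal protein gene, with 116 and 58.3 CPM with NECA, and 94.6 and 151 CPM with DMSO. The next for Mpo was Prss34 (0.683), a basophil protease gene, with 24.4 and 9.56 CPM with NECA, and 31.2 and 40.3 CPM with DMSO. The first for Prtn3 were Rps27rt (0.473) and the Y-linked gene Eif2s3y (0.717), which had 84.0 and 78.3 CPM with NECA, and 34.2 and 75.1 CPM with DMSO. The sex of the animals is not given in the labels, and its part was not tested. The 5 nearest to Ctsg included the mitochondrial transcripts mt-Nd1 (0.0332) and mt-Nd2 (0.0836). The 0.5 added to each CPM narrows the profile of a gene as low as Ctsg (0.905 to 1.97 CPM). The fitted log2 fold change of Ctsg was -0.83, against -0.65 for mt-Nd1 and -0.58 for mt-Nd2. The first for Lyz2 were Arrdc4 (0.0194) and Xylt1 (0.0280). Such likeness over 4 libraries is a description only.

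**Figure D4:**
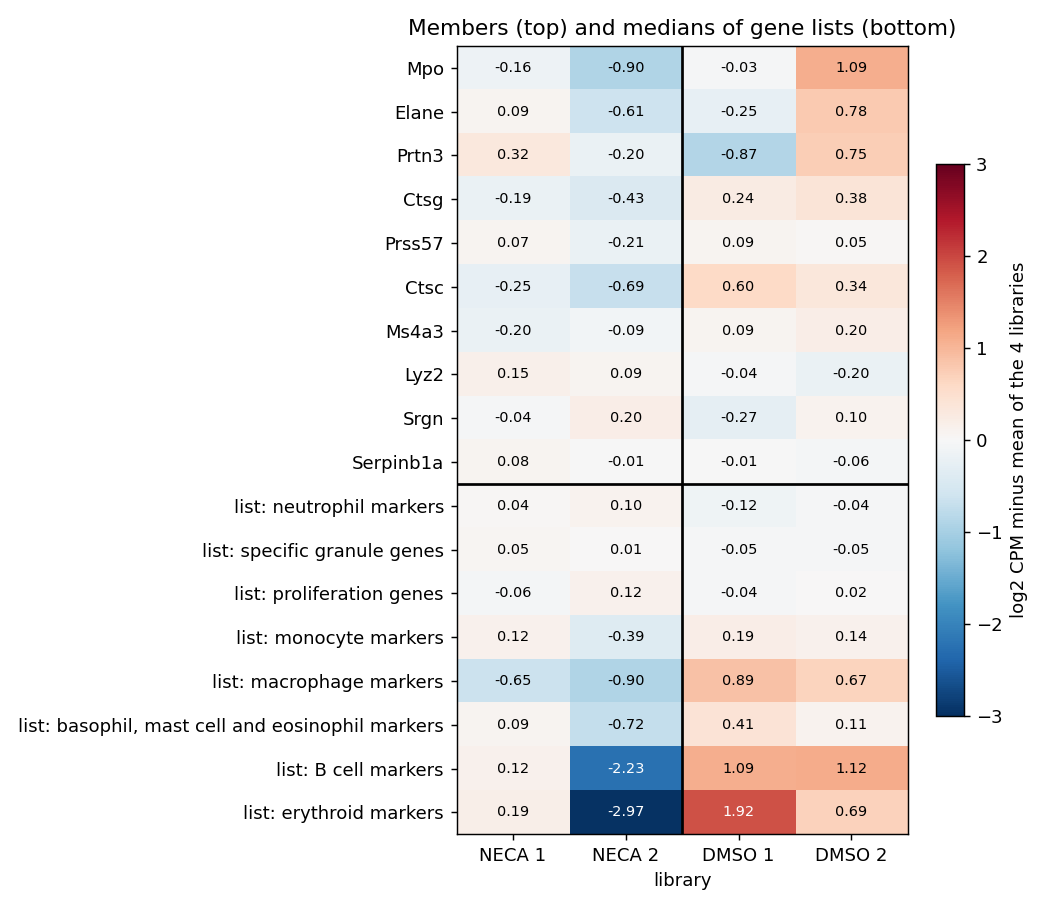
Log2(CPM + 0.5) minus its mean over the 4 libraries, for each gene (top) and as the median of listed genes (bottom), in NECA replicates 1 and 2 and DMSO replicates 1 and 2. DMSO replicate 2 is high for Mpo (1.09), Elane (0.78) and Prtn3 (0.75), and the macrophage markers are at -0.65 and -0.90 with NECA and at 0.89 and 0.67 with DMSO.

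Other cell types whose granules hold related proteases were looked at beside these genes. The lower calls by edgeR's test below are set against 0.978% of all genes tested that were lower. Of 13 tested markers of basophils, mast cells and eosinophils, 0 were higher, 1 (the eotaxin receptor Ccr3) was lower and 12 did not pass edgeR's test, with a median log2 fold change of -0.26. Without NECA replicate 1, and likewise without NECA replicate 2, 4 were lower. The summed level of the 14 listed genes was 447 and 416 CPM with NECA, and 424 and 425 CPM with DMSO. Most of that sum was Hdc, the histamine-forming enzyme, with 371 and 368 CPM with NECA, and 324 and 319 CPM with DMSO. The other 13 genes summed to 75.8 and 48.6 CPM with NECA, and 101 and 106 CPM with DMSO, so both NECA libraries lay below both DMSO libraries. Mcpt8, a basophil protease of the same family as cathepsin G, had 11.7 and 6.14 CPM with NECA, and 13.1 and 18.8 CPM with DMSO (adjusted p = 0.145). The summed level of 10 monocyte markers was 930 and 862 CPM with NECA, and 916 and 905 CPM with DMSO. The B cell and erythroid markers were lowest in NECA replicate 2, at 81.8 and 14.02 CPM with NECA against 154 and 160 CPM with DMSO for the sum of 10 B cell markers, and at 340 and 19.5 CPM with NECA against 1182 and 487 CPM with DMSO for 9 erythroid markers. Of 10 B cell markers 1 was lower and 0 higher by edgeR (median -1.78), and of 9 erythroid markers 0 passed (median -1.92), though each of the 9 was lower at an unadjusted p under 0.05 and 0 by DESeq2. Without NECA replicate 1 the lower calls were 10 B cell and 8 erythroid markers, and without NECA replicate 2 they were 8 and 6. With the replicate block they were 9 and 8, without DMSO replicate 2 they were 0 and 1, and DESeq2 called 0 B cell markers. Of 7 T and NK cell markers tested 0 passed (median -1.51), with 5 lower at an unadjusted p under 0.05, 0 by DESeq2, 2 when NECA replicate 1 was left out and 1 when NECA replicate 2 was, and of 6 dendritic cell markers Btla and Irf8 were lower and 0 higher (median -0.79). Of the dendritic cell markers 0 passed without DMSO replicate 1, without DMSO replicate 2 or with DESeq2's size factors, and DESeq2 called 1 lower. The part of these cells in the values of the primary granule genes was not tested.

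Other genes of the granule and of its supply gave 0 calls by edgeR with the main settings. With the replicate block 1 protease inhibitor and 1 haem synthesis gene were higher, and 1 related protease was lower. With total counts as the scale 1 inhibitor and 1 related protease were lower. With no filter 1 inhibitor and 1 haem gene were higher, and 1 inhibitor, 2 related proteases and 1 haem gene lower. In some lists the counts also changed with a library left out. Of 15 tested genes of other azurophil and lysosome-type contents, 0 were higher and 0 lower (median log2 fold change 0.01). At an unadjusted p under 0.05 1 was lower, and DESeq2 called 0. Over all 13083 genes tested, at least 1785 had an unadjusted p under 0.05 by edgeR, in either direction. Prosaposin, Psap, had 946 and 896 CPM with NECA, and 954 and 925 CPM with DMSO, and the lysosomal protease Ctsd had 308 and 304 CPM with NECA, and 303 and 313 CPM with DMSO. Of 5 tested protease inhibitors 0 passed (median -0.19), with 1 higher and 2 lower at an unadjusted p under 0.05 and 1 higher by DESeq2, among them Slpi, a secreted elastase inhibitor, with 337 and 356 CPM with NECA, and 270 and 314 CPM with DMSO (log2 fold change 0.25, adjusted p = 0.11). Of 9 tested related proteases 0 passed (median -0.63), with 3 lower at an unadjusted p under 0.05 and 0 by DESeq2, and Ctss, a protease of antigen-presenting cells, had 20.6 and 9.76 CPM with NECA, and 35.5 and 29.1 CPM with DMSO (-1.07, adjusted p = 0.056). Of 11 tested enzymes that build the glycosaminoglycan chains of serglycin 0 passed (median 0.10, 9 above 0 and 2 below), with 3 higher at an unadjusted p under 0.05 and 0 by DESeq2. Of 8 haem synthesis genes, which supply the cofactor of myeloperoxidase, 0 passed (median -0.17), with 1 higher and 3 lower at an unadjusted p under 0.05 and 1 higher by DESeq2, and Alas1, the first enzyme, had 190 and 207 CPM with NECA, and 163 and 167 CPM with DMSO (0.27, adjusted p = 0.0653).

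Over all genes tested 0.978% were lower by edgeR's test. Of 13 regulators of promyelocyte genes, 0 were higher, 12 did not pass and 1 was lower by edgeR's test (median -0.04). The lower one was Irf8, a factor of monocytes and dendritic cells that restrains granulocyte development, with 8.35 and 3.62 CPM with NECA, and 15.8 and 15.0 CPM with DMSO (-1.34, adjusted p = 0.0423), and Irf8 missed the threshold when either DMSO library was left out, with adjusted p = 0.096 without replicate 1 and 0.0697 without replicate 2, and with DESeq2's size factors (adjusted p = 0.0511). Spi1, which encodes PU.1, had 881 and 845 CPM with NECA, and 766 and 781 CPM with DMSO (0.16, adjusted p = 0.12). Cebpe, a factor of the later granule stages, had 722 and 682 CPM with NECA, and 651 and 649 CPM with DMSO (0.11, adjusted p = 0.297). Of 12 tested genes of early neutrophil progenitors 0 passed by edgeR with the main settings (median -0.03). At an unadjusted p under 0.05 1 was higher and 2 lower, and DESeq2 called 1 higher. With no filter on low counts edgeR called 1 of 16 progenitor genes higher and 1 lower. That setting also called 1 regulator higher and 2 lower. Of 18 proliferation genes 0 passed by edgeR with the main settings (median 0.03), with 1 higher at an unadjusted p under 0.05 and 0 by DESeq2. Calls among the 18 appeared only when NECA replicate 1 was left out.

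Genes of the granules made after the primary ones were counted in the same way, against the 0.352% of all genes tested that were higher. Of 14 specific granule genes, 2 were higher, 0 lower and 12 not past edgeR's test (median 0.05). At an unadjusted p under 0.05, 6 were higher and 2 lower, DESeq2 called 4 higher and 1 lower, and 1 was also called lower with total counts as the scale and with the replicate block. Haptoglobin, Hp, had 1945 and 2031 CPM with NECA, and 1611 and 1696 CPM with DMSO (0.27, edgeR adjusted p = 0.0142), and Lrg1, a leucine-rich glycoprotein, stood at 0.42 (adjusted p = 0.00641). Hp stood at 0.23 (adjusted p = 0.061) with DMSO replicate 1 left out. Of 7 tested gelatinase granule genes, the matrix proteases Mmp8, Mmp9 and Mmp25 were higher and 4 did not pass (median 0.19), and 0 passed with total counts as the scale, which shifted the median of all genes by -0.07 on the log2 scale. Mmp8 stood at 0.19 (adjusted p = 0.102) with DMSO replicate 1 left out, and Mmp25 at 0.27 (adjusted p = 0.0613) with DMSO replicate 2 left out, so neither call held there. Whether these lists differ from the primary granule genes in their response was not tested. Per library, Mmp9 had 6150 and 5852 CPM with NECA, and 5135 and 5097 CPM with DMSO, a rise of 0.23 on the log2 scale that is about the size of that of Lyz2.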

How the data were processed

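RNA of 300000 PMN-MDSC per condition was copied with SMARTer chemistry, amplified by PCR, fragmented and sequenced as read pairs, per the labels' protocols. The deposited tables hold, per the file headers, whole-number read counts and FPKM for 54532 Ensembl genes per library. The submitters' processing notes name HISAT, StringTie and edgeR and the builds mm10 and GRCm38. How reads were counted, on which annotation release and with which strand setting, is not given in the sources used here. The deposited FPKM were the same counts divided by 1 length per gene and 1 scale per library (checked on 9004 genes at 50 counts or more per library, largest relative departure 4.6e-09).

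Counts were analysed in R 4.3.3 with edgeR 4.0.16: filterByExpr (minimum count 10), TMM, glmQLFit and glmQLFTest, NECA against DMSO, 2 residual degrees of freedom, Benjamini-Hochberg over 13083 genes, threshold 0.05. The procedure was tested on simulated data. CPM use TMM-scaled library sizes. The SE is the absolute log2 fold change over the root of F. Alternatives were DESeq2 1.42.0, DESeq2 size factors, total counts, no filter, a replicate block, sums of near-identical genes and leaving out each library. The 10 genes and all lists were chosen with earlier results of these data known. Each of the 10 is named, as are list members past the test or of highest FPKM. Others were chosen after their values were seen. Not every list gene past the test is reported here. Positions are from GENCODE M21 (GRCm38), promoters from RefSeq. Replicates differed by more than sampling noise (chi-square over its degrees of freedom 5.38 with NECA and 6.78 with DMSO).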

Additional observations from a re-analysis of the deposited data

How the results depend on the processing

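Of 92 values of single genes under alternatives, 78 kept their direction and their side of the threshold. Lyz2 and Ctsc kept their direction in every alternative run, and Mpo, Ctsg, Ms4a3 and Serpinb1a kept theirs too. With each library left out in turn, the log2 fold change ran from -1.22 to 0.040 for Elane, from -0.72 to 1.12 for Prtn3, from -0.28 to 0.014 for Prss57 and from -0.014 to 0.35 for Srgn, so that its sign turned. The turns were without DMSO replicate 2 for Elane and Prtn3, without NECA replicate 2 for Prtn3 (0.19) and Prss57, and without DMSO replicate 1 for Srgn. With a library left out, the primary granule genes called ran from 0 to 2 higher and from 1 to 2 lower, and the counts over all genes from 23 to 230 higher and from 86 to 560 lower. Without DMSO replicate 1 Mpo was called and Ctsc was not, while Mpo joined Ctsc without either NECA library. With total counts alone 0 of them were higher, and 21 genes were higher and 217 lower. Without a filter 2 of them were lower (Mpo joined Ctsc), and 285 genes were higher and 590 lower. The DESeq2 test called 143 genes higher and 157 lower. The cause of these changes was not tested.

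With the replicate block 123 genes were higher and 298 lower, the calls among primary granule genes were Lyz2 and Ctsc, and Prtn3 stood at 0.11. Deviations of same-numbered libraries from their group means correlated at r = 0.0198 over 13083 genes, and with 2 pairs the numbers are not shown to pair the samples. Depth was low for Ctsg (14 to 37 counts per library) and Elane (19 to 76).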
